A study of Mus musculus with 14 samples.

Results

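The mouse mitochondrial genome (mtDNA) is a small circle that keeps genes of its own, and the report covers all 37 of them: 13 mRNAs, 2 rRNAs and 22 tRNAs. Members were all genes whose symbol starts with mt-, which left out nuclear copies of mtDNA with Gm names, and they made up 37 of the 56748 genes listed for each library. Every library was described by the FPKM of each member (fragments counted on a gene, scaled by its length and by the depth of the library) and by its share of the summed mt- FPKM. RNA-Seq of heart tissue was available for 14 WT C57BL6J mice, 1 library per mouse. WT_F held mice 28, 29, 30, 31 and 32 (libraries A28 to A32), WT_B held mice 4, 5, 7, 8 and 9 (B4 to B9), and WT_A held mice 22, 23, 24 and 26 (A22 to A26). None of the 14 received a NAD+ precursor, and hearts with frataxin knockdown and those given NR or NMN are not analysed here.

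All mice were fed doxycycline chow, an antibiotic that induces the knockdown transgene in the mutant line of the study and that is also known to inhibit mitochondrial translation, so no group was free of it. The labels give 16 to 20 weeks of chow for all. By mouse number, WT_A matched the pilot males of the study (20 weeks) and WT_F its pilot females (26 weeks), and WT_B could be placed only by elimination as males of the second cohort (16 weeks). Treatment had begun at 12 to 16 weeks of age. Sex and weeks therefore cannot be told apart between WT_F and WT_A, nor can cohort and weeks between WT_B and WT_A. RNA came from 1 to 2 mg of heart, with no statement of the region sampled.

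mtDNA is transcribed from both strands into long precursors, from which the tRNAs are cut out to free the mRNAs and rRNAs that lie between them. The heavy-strand promoters give both rRNAs, 12 of the mRNAs and most tRNAs (28 genes on the plus strand of the annotation), while the light-strand promoter gives mt-Nd6 and 8 tRNAs (9 genes on the minus strand). The mRNAs encode core subunits of respiratory complexes I, III and IV and of ATP synthase (complex V), which the heart uses heavily, and most carry a short poly(A) tail, a feature that mt-Nd6 mRNA lacks in human cells. Libraries were made from RNA bound to poly-T beads, a step that selects on such tails.

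The depth read from the steps between low FPKM values was 16816000 to 31990000 fragments per library, and mt-Co1 and mt-Cytb rested on at least 39344 and 45080 fragments in every heart. The cardiomyocyte genes Myh6, Tnnt2 and Actc1 were high in all 14 libraries, and the neuronal genes Snap25 and Syt1 did not exceed 0.213 FPKM in any. A24 stood apart in tissue make-up. Its atrial light chain gene Myl7 was at 4235 FPKM, against at most 2.003 FPKM in the other 13, and its ventricular Myl2 was at 82.1 FPKM, against at least 2226 FPKM.

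The 37 genes took between 1.93% and 52.0% of the summed FPKM of a heart. Their share was 50.0, 7.56, 17.2, 7.63 and 2.42% in WT_F hearts, 48.9, 49.5, 45.2, 52.0 and 33.8% in WT_B hearts and 51.0, 1.93, 6.63 and 2.17% in WT_A hearts. Of the WT_B hearts, 4 lay between 45.2% and 52.0% and the fifth (B9) at 33.8%, whereas WT_F and WT_A each held 1 heart in the range of those 4 (A28 at 50.0% and A22 at 51.0%) beside others that did not exceed 17.2% and 6.63%. The means were 16.96% ± 19.2 in WT_F hearts (SD, n = 5), 45.9% ± 7.17 in WT_B hearts (SD, n = 5) and 15.4% ± 23.8 in WT_A hearts (SD, n = 4). Without A22 the WT_A mean was 3.58%, and without A28 the WT_F mean was 8.70%, so that single hearts set both means. Counted as fragments the share was lower, at 0.740% to 26.4% in WT_F, 15.9% to 28.2% in WT_B and 0.630% to 28.1% in WT_A (the 95% Wilson interval of the lowest, A23, was 0.627% to 0.633% and covers counting error only). The summed FPKM of all other genes stayed within 213893 to 278287 in the 14 libraries. In such tissue RNA, fewer cells of a type and less RNA per cell cannot be told apart.

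**Figure D1:**
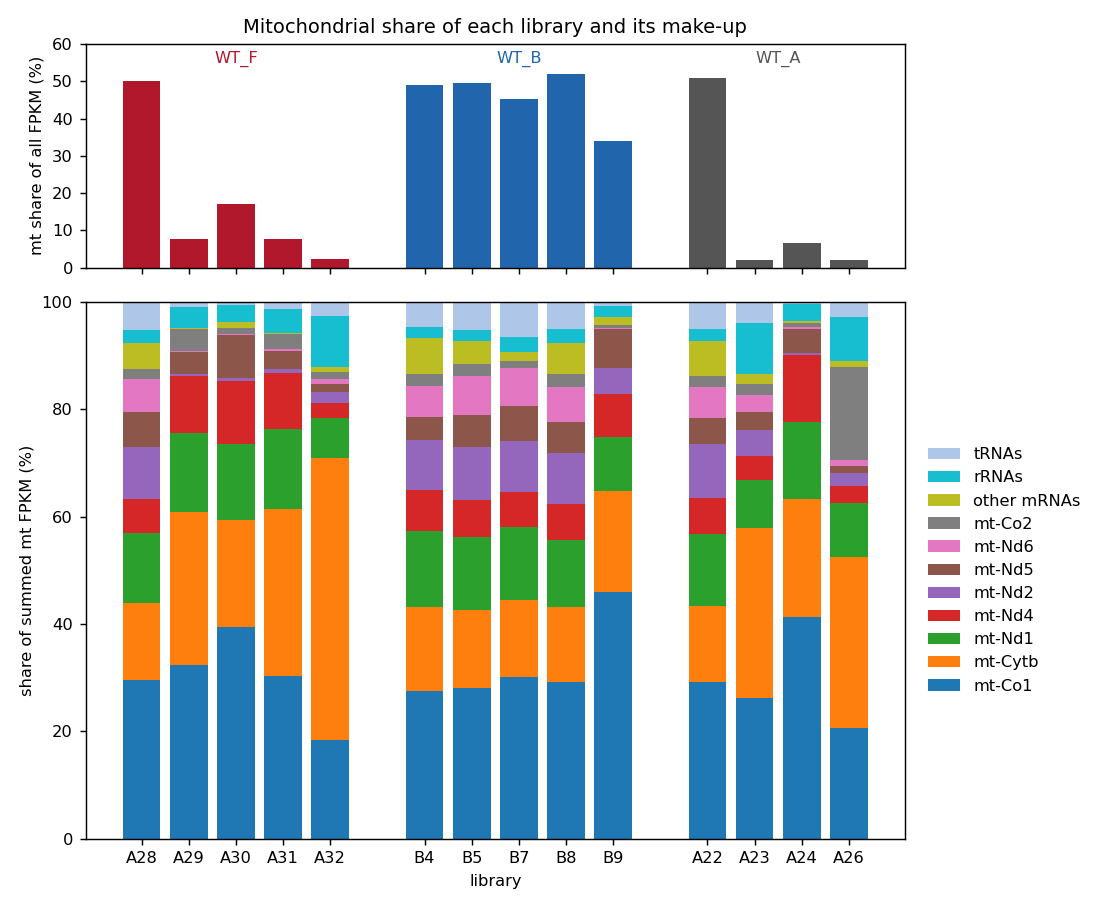
Upper bars give the summed mt- FPKM as a percent of all FPKM in each of the 14 libraries, coloured by group; lower stacked bars give the percent of the mt- FPKM held by single mRNAs, by the other mRNAs together, by the 2 rRNAs and by the 22 tRNAs. A28, A22 and 4 of the 5 WT_B libraries show nearly the same stack with mt-Co1 at 27.5% to 30.1%, while the remaining 8 libraries have less mt-Nd2 and mt-Nd6 and, in each, more mt-Cytb.

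Messenger RNAs made up most of the mitochondrial FPKM in every heart, 86.7% to 97.2% of it. The 2 rRNAs took 2.37, 3.95, 3.27, 4.40 and 9.49% in WT_F hearts, 2.01, 2.03, 2.96, 2.54 and 1.97% in WT_B hearts and 2.36, 9.41, 3.24 and 8.18% in WT_A hearts. Their share was 9.49%, 9.41% and 8.18% in A32, A23 and A26, and at most 4.40% in the other 11 libraries. The 22 tRNAs took 5.23, 0.894, 0.484, 1.29 and 2.58% in WT_F hearts, 4.71, 5.19, 6.43, 5.05 and 0.786% in WT_B hearts and 4.96, 3.90, 0.373 and 2.77% in WT_A hearts. B9, at 0.786%, lay apart from the other WT_B hearts, which held at least 4.71%, and A24 had the lowest value of all 14, 0.373%. The groups overlapped in both shares. The rRNA share averaged 4.70% ± 2.79 in WT_F hearts (SD, n = 5), 2.30% ± 0.434 in WT_B hearts (SD, n = 5) and 5.80% ± 3.52 in WT_A hearts (SD, n = 4). For the tRNA share the means were 2.09% ± 1.92 in WT_F hearts (SD, n = 5), 4.43% ± 2.14 in WT_B hearts (SD, n = 5) and 3.001% ± 1.97 in WT_A hearts (SD, n = 4). Without A28, the WT_F mean of the tRNA share was 1.31%. Without B9 the WT_B mean was 5.34%, and the WT_A mean was 2.35% without A22 and 3.88% without A24.

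The make-up was then compared between hearts as the percent of mt- FPKM that 2 libraries hold in common, the sum over the 37 genes of the smaller of the 2 shares. A22 shared 97.0% with B8 and 96.7% with A28, hearts of the other 2 groups, but 73.7%, 71.8% and 59.0% with the remaining WT_A hearts. A28 was likewise nearest to B8 (97.4%), and B9 to A30 (88.0%) rather than to a WT_B heart. A29 and A31 shared 95.5%, and A30 and the atrial A24 shared 94.5%. A23, A26 and A32 had no neighbour above 83.1%. The nearest library lay in another group for 10 of the 14 hearts, but most of the libraries open to each heart were in another group as well.

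Both rRNAs were detected in all hearts but did not vary together. The large rRNA mt-Rnr2 (chrM:1094-2675, plus strand, mtDNA of GRCm38 as annotated by GENCODE M21) was at 3402, 679.6, 1226, 844 and 571 FPKM in WT_F hearts, 2744, 2839, 3489.9, 4069 and 1471 FPKM in WT_B hearts and 3713, 466, 481 and 499.9 FPKM in WT_A hearts. The small rRNA mt-Rnr1 (chrM:70-1024) was at 1992, 93.8, 398, 51.6 and 7.06 FPKM in WT_F hearts, 1578, 1526, 1721, 2155 and 846 FPKM in WT_B hearts and 2072, 21.99, 35.5 and 6.19 FPKM in WT_A hearts. The highest and lowest library differed 8.73-fold for mt-Rnr2 and 348-fold for mt-Rnr1, although only the 69 bases of mt-Tv lie between these 2 genes. The ratio of mt-Rnr2 to mt-Rnr1 was 1.71, 7.24, 3.08, 16.4 and 80.9 in WT_F hearts, 1.74, 1.86, 2.03, 1.89 and 1.74 in WT_B hearts and 1.79, 21.2, 13.53 and 80.8 in WT_A hearts. It was 1.71 to 2.03 in the 5 WT_B hearts, A28 and A22, and 80.9 and 80.8 in A32 and A26. In these 2, mt-Rnr1 rested on 184 and 118 fragments.

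Complex I, the NADH dehydrogenase, takes 7 of the 13 mRNAs, all for subunits of its membrane arm. mt-Nd1 was at 29328, 2889.6, 6992, 3047 and 460.2 FPKM in WT_F hearts, 30423, 29406, 23915, 30391 and 11802 FPKM in WT_B hearts and 32910.5, 468, 2294 and 622 FPKM in WT_A hearts. mt-Nd2, which is separated from mt-Nd1 only by 3 tRNA genes, was at 22037, 60.3, 257, 135 and 127 FPKM in WT_F hearts, 20158, 21251, 16712, 23066 and 5672 FPKM in WT_B hearts and 24574, 254, 69.7 and 150.1 FPKM in WT_A hearts. The ratio of mt-Nd1 to mt-Nd2 was 1.32 to 1.51 in A28, A22 and the WT_B hearts other than B9, but mt-Nd1 exceeded mt-Nd2 by 47.9-fold in A29, 27.2-fold in A30, 22.6-fold in A31 and 32.9-fold in A24. A23, at the lowest mitochondrial share, had a ratio of 1.85. mt-Nd2 held 9.37% to 10.02% of mt- FPKM in A28, A22, B4, B5, B7 and B8, 4.83% in B9, 4.90% in A23 and 0.308% to 2.43% in the other 6 hearts.

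mt-Nd4 was at 14554, 2083, 5844, 2125 and 168 FPKM in WT_F hearts, 16298, 14516, 11358, 16621 and 9337 FPKM in WT_B hearts and 16209.6, 225, 1978 and 199 FPKM in WT_A hearts. mt-Nd5 was at 14684, 795, 4027, 696 and 87.9 FPKM in WT_F hearts, 9091, 12885, 11620.5, 14311 and 8486 FPKM in WT_B hearts and 12327, 172, 715 and 77.6 FPKM in WT_A hearts. In B9 both were below the other WT_B hearts, but by less than mt-Nd2 was, and across the 14 hearts both were lowest in A32, A26 and A23. mt-Nd4l, whose last 7 bases are the first 7 of mt-Nd4, was at 2971, 13.7, 345, 11.8 and 22.5 FPKM in WT_F hearts, 2639, 2528, 731, 3622 and 1219 FPKM in WT_B hearts and 3628, 26.8, 10.6 and 11.6 FPKM in WT_A hearts. Despite the shared transcript, mt-Nd4 exceeded mt-Nd4l by 152-fold in A29, 180-fold in A31 and 186-fold in A24, and by 4.47-fold to 17.1-fold in the other 11 libraries. In A29, A31 and A24, mt-Nd4l rested on 96, 87 and 76 fragments. Its nuclear copy Gm10222 matches 294 of its 297 bases at 100% and stood at 0.516, 0.441 and 0.930 of its FPKM there. In the other 11 libraries the copy stood at 0.117 to 0.893, the highest in A26, where mt-Nd4 exceeded mt-Nd4l by 17.1-fold. The part of shared reads in these ratios was not tested. mt-Nd3, another short mRNA, was at 555, 1.83, 3.87, 3.36 and 4.11 FPKM in WT_F hearts, 452, 401, 321, 387 and 8.81 FPKM in WT_B hearts and 919, 8.49, 2.15 and 13.7 FPKM in WT_A hearts. Its 8 lowest values rested on 15 to 95 fragments.

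mt-Nd6 is the single mRNA on the minus strand and overlaps the end of mt-Nd5 by 14 bases on the opposite strand. It was at 14212, 35.0, 81.3, 63.6 and 60.2 FPKM in WT_F hearts, 12474, 15716, 12626, 16105 and 347 FPKM in WT_B hearts and 13736, 169, 45.9 and 66.5 FPKM in WT_A hearts. Between B9 and the other WT_B hearts the values did not overlap, with B9 at 347 FPKM and the others at 12474 to 16105 FPKM, while mt-Nd5 was at 8486 FPKM in B9 and 9091 to 14311 FPKM in the others. The ratio of mt-Nd5 to mt-Nd6 was 1.03, 22.7, 49.5, 10.9 and 1.46 in WT_F hearts, 0.729, 0.820, 0.920, 0.889 and 24.4 in WT_B hearts and 0.897, 1.02, 15.6 and 1.17 in WT_A hearts. It lay between 0.729 and 1.46 in 9 libraries and between 10.9 and 49.5 in A29, A30, A31, A24 and B9. The 9 libraries included A23, A26 and A32, where both mRNAs were low.

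mt-Cytb, the only mtDNA gene of complex III, took its largest shares in the 3 hearts with the least mitochondrial FPKM (A32, A26 and A23). It was at 32576, 5592, 9923, 6316 and 3194 FPKM in WT_F hearts, 33751, 30958, 25385, 34432 and 22063 FPKM in WT_B hearts and 35078, 1643, 3482 and 1973 FPKM in WT_A hearts. As a share of mt- FPKM, it was at 14.3, 28.5, 20.0, 31.1 and 52.4% in WT_F hearts, 15.7, 14.4, 14.4, 14.04 and 18.8% in WT_B hearts and 14.3, 31.7, 21.9 and 31.9% in WT_A hearts. Its share was highest in A32 at 52.4%, where its FPKM was 10.2-fold lower than in A28. The highest and lowest library differed 21.4-fold for mt-Cytb, the smallest span of the 13 mRNAs, which reached 700.2-fold for mt-Atp6.

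Complex IV takes 3 mRNAs. mt-Co1, the most abundant member on average and the catalytic subunit of cytochrome c oxidase, was at 67454, 6341, 19598, 6172 and 1127 FPKM in WT_F hearts, 59258, 60500.4, 52989.9, 71663 and 54059 FPKM in WT_B hearts and 71458, 1359, 6591 and 1275 FPKM in WT_A hearts. The other 2, chosen after their values were seen, encode its mtDNA-borne partner subunits. mt-Co3 was at 3889, 16.6, 135, 14.7 and 10.99 FPKM in WT_F hearts, 6043, 2791, 1174, 5131 and 360.0 FPKM in WT_B hearts and 5408, 20.9, 19.4 and 20.6 FPKM in WT_A hearts. mt-Co2 was at 3975, 811, 536, 567 and 80.0 FPKM in WT_F hearts, 5048, 4820.3, 1993, 5599 and 564 FPKM in WT_B hearts and 5127, 106, 116 and 1069 FPKM in WT_A hearts. mt-Co1 held 18.5% to 46.1% of mt- FPKM and was highest in B9, whereas mt-Co3 exceeded 1% only in A28, A22, B4, B5 and B8. mt-Co2 held 17.3% in A26 and 0.481% to 4.14% in the other 13 libraries. The A26 value rested on 14602 fragments.

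The 2 mRNAs of ATP synthase share one transcript. mt-Atp6 was at 3749, 8.35, 54.0, 26.3 and 17.2 FPKM in WT_F hearts, 5001, 3410.2, 711, 5163 and 229 FPKM in WT_B hearts and 5849, 39.3, 14.2 and 26.4 FPKM in WT_A hearts. mt-Atp8 was at 58.4, 0.624, 4.85, 3.55 and 2.70 FPKM in WT_F hearts, 85.0, 63.3, 12.7, 109 and 0.537 FPKM in WT_B hearts and 139, 4.09, 0.204 and 1.47 FPKM in WT_A hearts. mt-Atp8 had the lowest FPKM of the mRNAs in 12 of the 14 libraries, with mt-Nd3 lower in A30 and A31, and its lowest values were 1 fragment in A24, 2 in B9 and 3 in A29. The ratio of mt-Atp6 to mt-Atp8 was 42.2 to 64.2 in A28, A22 and the WT_B hearts other than B9, 427 in B9 and 6.37 to 69.8 in the remaining 7. The mt-Atp8 sequence (chrM:7766-7969, plus strand, GENCODE M21 on GRCm38) is shown because its last 43 bases, in capitals, are also the first 43 of mt-Atp6, beginning with the start codon of that gene, so a fragment there belongs to both. How such fragments were counted is not given, so a low FPKM of mt-Atp8 need not mean less RNA than for mt-Atp6.
mt-Atp8: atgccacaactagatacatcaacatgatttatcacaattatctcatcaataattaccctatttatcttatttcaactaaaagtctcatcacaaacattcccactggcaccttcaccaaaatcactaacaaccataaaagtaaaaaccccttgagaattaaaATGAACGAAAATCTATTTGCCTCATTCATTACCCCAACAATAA

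**Figure D2:**
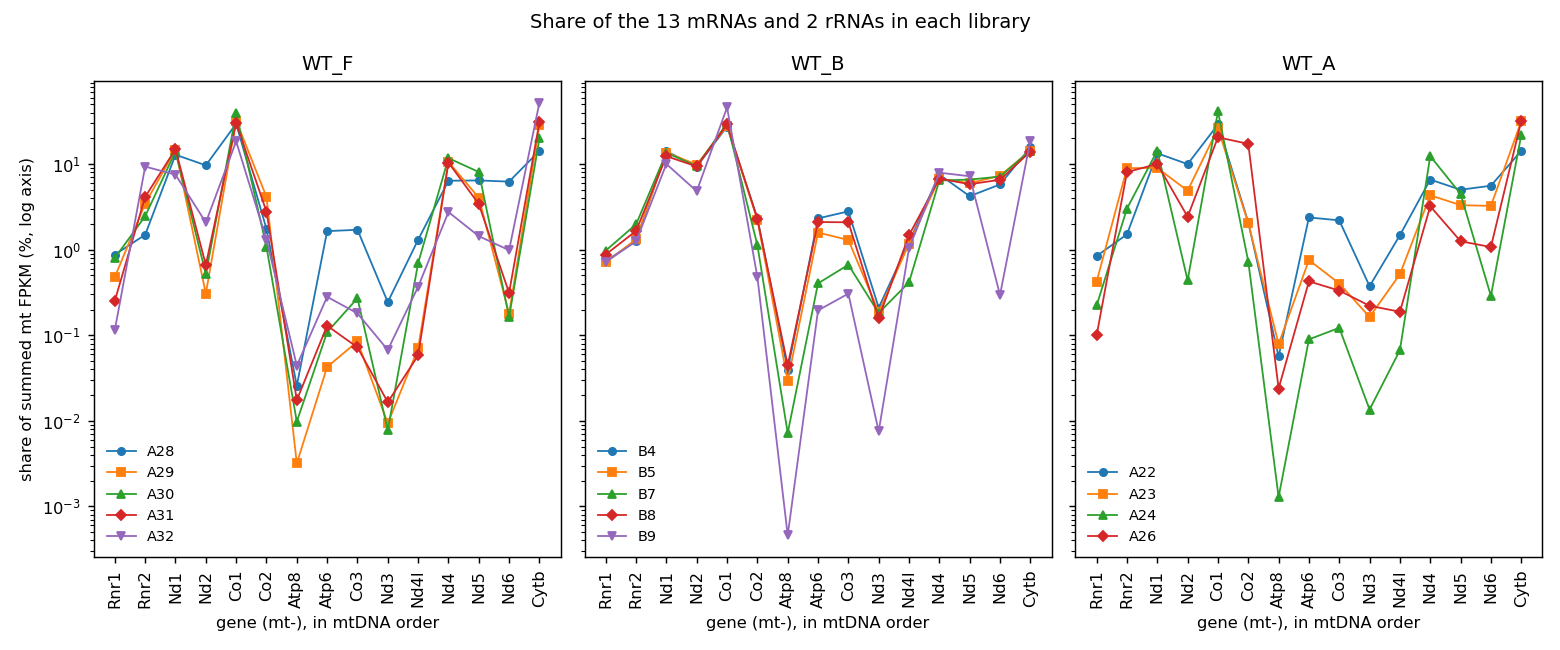
Share of summed mt- FPKM (log axis) of the 2 rRNAs and 13 mRNAs in mtDNA order, 1 line per library and 1 panel per group. Lines of the WT_B hearts other than B9, A28 and A22 run close together except at mt-Co2, mt-Atp8, mt-Atp6, mt-Co3 and mt-Nd4l, where B7 is the lowest of the 6. The remaining lines all lie below the 6 at mt-Nd2, mt-Co3 and mt-Nd6. At mt-Atp8, mt-Atp6, mt-Nd3 and mt-Nd4l only some of them do, and A23 has the highest mt-Atp8 share (0.0789%).

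Nuclear copies share part of these sequences. On nuclear chromosome 1, 7 pseudogenes match mtDNA at 99.7% to 100% identity between positions 6390 and 11042 (blastn against the GENCODE M21 transcripts), and the window they span holds the last 483 bases of mt-Co1, the first 876 of mt-Nd4 and all of mt-Co2, mt-Atp8, mt-Atp6, mt-Co3, mt-Nd3 and mt-Nd4l. The copies described here were chosen after their values were seen. The copy of mt-Co2, Gm28661 (100% over 681 bases), was at 2748, 349.9, 775, 462 and 75.4 FPKM in WT_F hearts, 2522, 1814, 895, 2711 and 614 FPKM in WT_B hearts and 3149, 38.8, 141 and 81.9 FPKM in WT_A hearts. The copy of mt-Atp6, Gm10925 (100% over 678 bases), was at 1673, 6.95, 32.5, 13.1 and 8.98 FPKM in WT_F hearts, 1853, 1522, 449, 1933 and 97.0 FPKM in WT_B hearts and 2113, 30.7, 3.68 and 14.4 FPKM in WT_A hearts. Both were high in A28, A22 and the WT_B hearts other than B9 and lower in the rest, as their mtDNA genes were. Where reads match both places a counter can assign them to either or to none, so the levels of these mRNAs are uncertain. The copies summed to 1.25% to 5.30% of the mt- FPKM, with Gm12338, which matched no mt- gene and varied between 72.5 and 166 FPKM, included. In A23, where the percent was highest, they summed to 275 FPKM with Gm12338 and to 110 FPKM without it. The ratio of Gm28661 to mt-Co2 was 0.0767 in A26 and 0.366 to 1.45 in the other 13, so the high mt-Co2 level of A26 was not accompanied by a high level of the copy. The part of shared reads in these levels was not tested. mt-Nd2 and mt-Nd6, outside that window, differed 408-fold and 460-fold between their highest and lowest library.

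**Figure D3:**
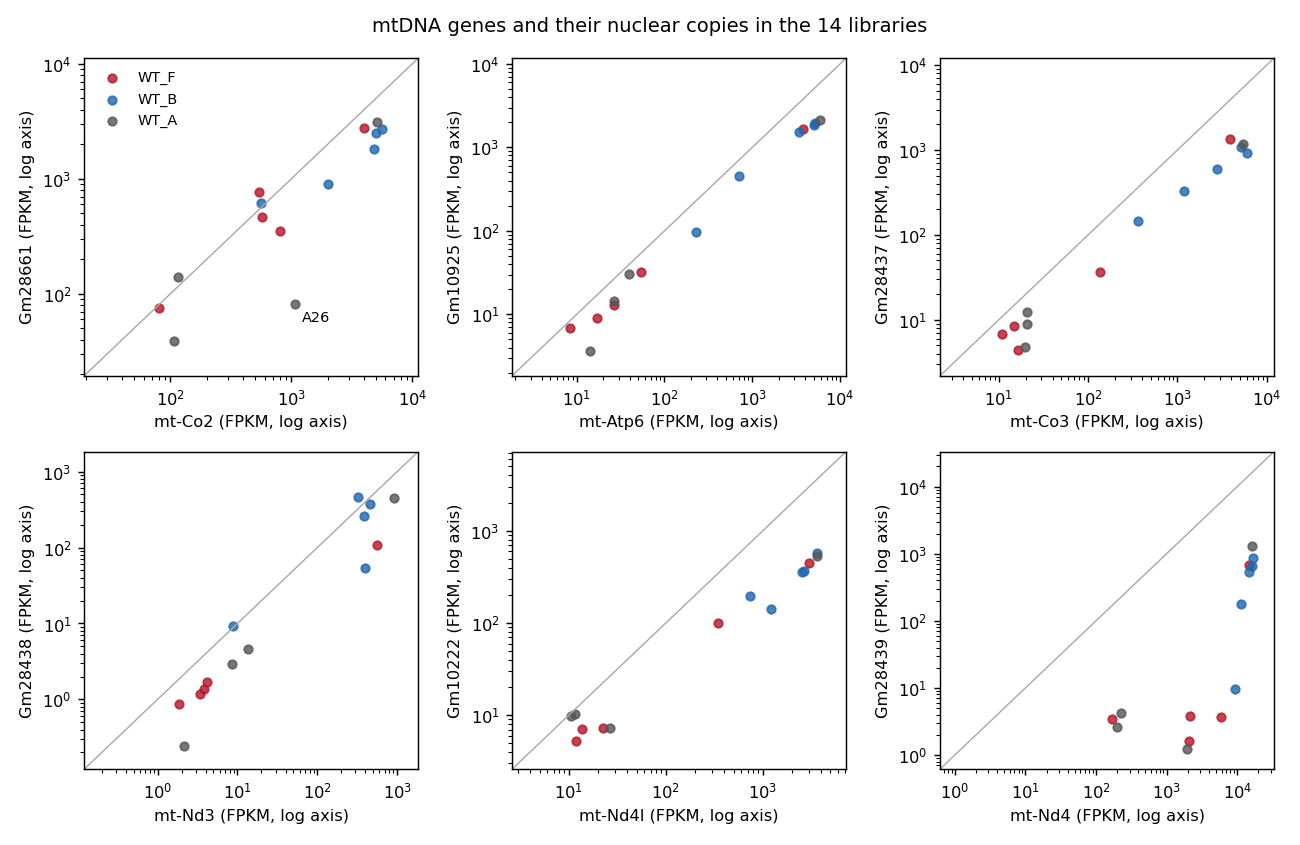
FPKM of 6 mtDNA mRNAs (x, log axis) and of their nuclear copy of at least 99% identity (y, log axis), 1 point per library and coloured by group, with the line of equal values. For mt-Atp6, mt-Co3 and mt-Nd4l the libraries with a high mtDNA gene also have a high copy, all below the line of equality. A26 lies far below the others for mt-Co2, and Gm28439 stays under 10 FPKM in 8 libraries where mt-Nd4 spans 168 to 9337 FPKM.

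Of the 22 tRNAs, mt-Tp alone was detected in all 14 libraries, 20 were detected in some, and mt-Tf was at 0 in all, where 3 fragments would have been 1.38 to 2.62 FPKM. The number detected was 20, 7, 7, 6 and 8 in WT_F hearts, 21, 20, 19, 20 and 11 in WT_B hearts and 21, 14, 2 and 9 in WT_A hearts. A24 had the fewest and B4 and A22 the most. Mature tRNAs carry no poly(A) tail, so values from poly-T selected RNA need not follow their pool. The 5 most abundant on average and mt-Tf are shown from GENCODE M21 (GRCm38), read 5′ to 3′ with the anticodon in capitals, to place them in mtDNA and to show their short length. mt-Tp (chrM:15356-15422), mt-Tc (chrM:5192-5257), mt-Te (chrM:14071-14139) and mt-Tn (chrM:5089-5159) are on the minus strand, and mt-Tl1 (chrM:2676-2750) and mt-Tf (chrM:1-68) on the plus strand. They carry proline, cysteine, glutamate, asparagine, leucine and phenylalanine.
mt-Tp: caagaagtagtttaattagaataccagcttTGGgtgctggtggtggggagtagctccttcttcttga
mt-Tc: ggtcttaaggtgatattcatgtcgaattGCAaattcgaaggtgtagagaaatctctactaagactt
mt-Te: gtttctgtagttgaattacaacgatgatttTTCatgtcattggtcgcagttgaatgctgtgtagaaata
mt-Tn: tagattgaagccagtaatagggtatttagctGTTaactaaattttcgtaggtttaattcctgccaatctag
mt-Tl1: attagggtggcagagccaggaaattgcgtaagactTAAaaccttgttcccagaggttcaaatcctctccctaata
mt-Tf: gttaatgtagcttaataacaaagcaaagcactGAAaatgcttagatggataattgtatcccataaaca

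mt-Tp, the last gene before the control region, was at 2172, 167, 221, 252 and 145 FPKM in WT_F hearts, 1938, 2025, 2758, 2296 and 315 FPKM in WT_B hearts and 2111, 112, 57.8 and 150.3 FPKM in WT_A hearts. Its highest and lowest library differed 47.7-fold, and it stood at 1.43% to 10.9% of the FPKM of mt-Cytb, the nearest mRNA. mt-Tc and mt-Tn flank the 32 bases with no gene that hold the origin of light-strand replication. mt-Tc was at 2436, 1.29, 0.600, 4.27 and 2.22 FPKM in WT_F hearts, 1733, 1944, 3189, 2447 and 1.66 FPKM in WT_B hearts and 2664, 35.3, 0 and 3.04 FPKM in WT_A hearts. mt-Tn was at 1284, 2.99, 1.67, 0 and 3.10 FPKM in WT_F hearts, 816, 1011, 956, 1283 and 9.26 FPKM in WT_B hearts and 1660.0, 9.79, 0 and 7.06 FPKM in WT_A hearts. In A28, A22 and the WT_B hearts other than B9 these 2 were at 816 to 3189 FPKM, while in every other heart they were at or below 35.3 FPKM. The fold between A28 and the lowest WT_F heart with a fragment was 4063-fold for mt-Tc, but it rests on a single fragment in A30.

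mt-Te, next to mt-Nd6 on the same strand, was at 2128, 0.615, 4.59, 0.584 and 2.13 FPKM in WT_F hearts, 2110.4, 2325, 1019, 2033 and 0.794 FPKM in WT_B hearts and 1318, 13.1, 0 and 1.45 FPKM in WT_A hearts. It rested on 1 fragment in B9 and on 1277 to 3326 in the other WT_B hearts. mt-Tl1, which follows mt-Rnr2 on the plus strand, was at 1055, 1.13, 11.1, 2.68 and 0 FPKM in WT_F hearts, 1105, 1082, 754, 1088 and 375 FPKM in WT_B hearts and 1292, 7.88, 1.66 and 1.34 FPKM in WT_A hearts. In B9 the low tRNAs lay on both strands, as values picked after they were seen show. On the plus strand mt-Ti, mt-Tg, mt-Ts2 and mt-Tl2 were at 0 in B9, against 70.5 to 322 FPKM in the other WT_B hearts, and mt-Tw was at 18.0 FPKM, against 449 to 745 FPKM. On the minus strand mt-Tq was at 0 as well, while mt-Ty kept 87.5 FPKM and mt-Tp 315 FPKM. mt-Tm on the plus strand was nearest to the others, at 106 FPKM in B9 against 112 to 176 FPKM in the other 4. mt-Tv, mt-Tt, mt-Ts1, mt-Tk and mt-Td never exceeded 3.63 FPKM, or 6 fragments.

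**Figure D4:**
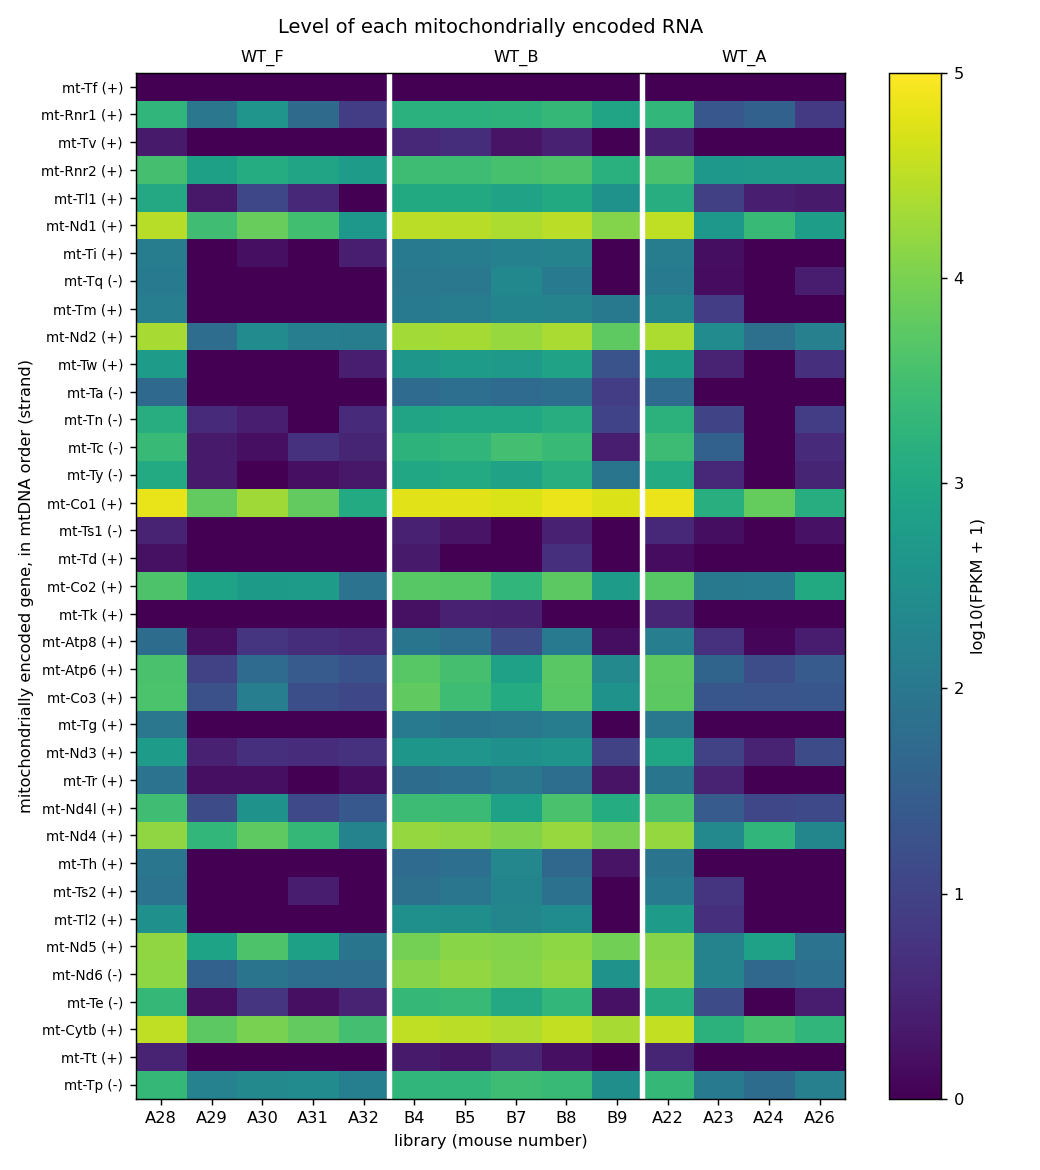
Colour gives log10(FPKM + 1) of the 37 mt- genes (rows, in mtDNA order with their strand) in the 14 libraries (columns, by group). A28, A22 and the WT_B libraries other than B9 are bright in the same rows, B9 is darker than them in most tRNA rows of both strands and at mt-Nd6, mt-Nd3 and mt-Atp8, and the other 7 libraries are dark in most tRNA rows but not at mt-Tp.

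By strand, the 9 genes on the minus strand held this share of mt- FPKM, 10.4, 1.06, 0.624, 1.58 and 3.50% in WT_F hearts, 9.39, 11.3, 12.3, 10.5 and 0.655% in WT_B hearts and 9.32, 6.60, 0.652 and 3.76% in WT_A hearts. The values of A22, A28 and the WT_B hearts other than B9 were 9.32% to 12.3%, and those of B9, A24 and A30 were 0.655%, 0.652% and 0.624%. The means were 3.43% ± 4.03 in WT_F hearts (SD, n = 5), 8.82% ± 4.69 in WT_B hearts (SD, n = 5) and 5.08% ± 3.72 in WT_A hearts (SD, n = 4). They were 1.69% in WT_F without A28, 10.9% in WT_B without B9, and 3.67% without A22 and 6.56% without A24 in WT_A. mt-Nd6 alone held 5.60% to 7.32% of mt- FPKM in A28, A22 and the WT_B hearts other than B9. It is unclear whether the libraries record strand, and without it reads of a minus-strand gene and of the plus-strand precursor across it cannot be told apart.

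WT_F was compared with WT_A, which differ in sex and in weeks. With 1 library per mouse, p-values here set the group difference against the spread between libraries. In that spread the mouse, the piece of heart sampled and the library preparation cannot be told apart. None of the 26 members tested passed in limma on log2(FPKM + 1), where 3 of 12483 genes did (0.0240%), and none had an unadjusted p under 0.05, against 480 of all genes (3.85%). The members' median log2 fold change was −0.31, that of all genes was −0.00, and 10 of the 26 were higher in WT_F. mt-Co1 averaged 20138 ± 27322 FPKM in WT_F hearts and 20171 ± 34282 FPKM in WT_A hearts (SD, n = 5 and 4), a log2 fold change of 0.75 ± 1.38 (SE; adjusted p = 0.9997). The SD within each group exceeded its mean, and the mean was 8309 FPKM in WT_F without A28 and 3075 FPKM in WT_A without A22. mt-Rnr2 differed by 0.41 ± 0.704 (SE; adjusted p = 0.9997), or by −0.01 without A28. Values of all 37 members overlapped between the groups, in FPKM and in share, although mt-Tf, at 0 in every heart, could not do otherwise. Without A22 the median was 1.42 and without A28 it was −1.45, so that its direction turned with 1 heart.

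The make-up was tested by scaling the mt- genes to one common sum in all libraries and all other genes to another. On that scale none of 27 members passed in limma, where 2 of 12404 genes did (0.0161%), and 1 of the 27 had an unadjusted p under 0.05, against 544 of all genes (4.39%). That was mt-Ts1, at a log2 fold change of −1.94 ± 0.718 (SE; adjusted p = 0.996) from no more than 6 fragments per library. mt-Cytb differed by 0.17 ± 0.418 (SE; adjusted p = 0.996) and mt-Nd2 by −1.21 ± 1.12 (SE; adjusted p = 0.996).

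WT_B was compared with WT_A, groups apart in cohort and weeks. No member of the 35 tested passed in limma, where 41 of 12745 genes did (0.322%). Of the 35, 19 had an unadjusted p under 0.05, each higher in WT_B, against 2865 of all genes (22.5%), and 34 of the 35 had a positive fold change. Among the 35, mt-Ta, mt-Tg, mt-Th, mt-Tv, mt-Tt and mt-Tk were at 0 in A23, A24 and A26. They could meet the filter (0.5 FPKM in 4 or more libraries) only with WT_B hearts, which favoured a positive fold change. mt-Ta and mt-Th were also among the 19. The median log2 fold change of the members was 3.62 and that of all genes −0.04. mt-Co1 averaged 59694 ± 7429.8 FPKM in WT_B hearts and 20171 ± 34282 FPKM in WT_A hearts (SD, n = 5 and 4), a log2 fold change of 3.47 ± 1.05 (SE; adjusted p = 0.128). mt-Nd5 differed by 4.23 ± 1.19 (SE; adjusted p = 0.112) and mt-Tl1 by 5.65 ± 1.59 (SE; adjusted p = 0.112), the smallest adjusted p-values among members. mt-Rnr2 differed less, by 1.78 ± 0.608 (SE; adjusted p = 0.148), and mt-Nd6 by 4.52 ± 1.71 (SE; adjusted p = 0.174).

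This comparison turned on 1 heart. Without A22, 25 of 34 members passed in limma, all higher in WT_B (12 mRNAs, 2 rRNAs and 11 tRNAs, with log2 fold changes of 2.52 for mt-Rnr2 to 8.13 for mt-Ty), beside 2392 of 12603 genes, while in the other 8 fits that left out 1 heart none passed. Of the 11 tRNAs, mt-Ta, mt-Tg and mt-Th were at 0 in A23, A24 and A26. They met the filter through WT_B alone and could only come out higher there. mt-Ti, mt-Tr and mt-Tm had 1, 4 and 14 fragments in A23 and 0 in A24 and A26. A22 lay within or above the WT_B range for every mRNA, and all 37 members overlapped between the groups, in FPKM and in share. For mt-Tf, at 0 in every heart, the overlap holds by definition. Leaving out A24 gave a median of 3.16 for the members and leaving out B9 gave 4.56, with none passing in either. The 3 hearts of WT_A other than A22 lay below every WT_B heart for mt-Co1, mt-Cytb, mt-Nd1 and mt-Nd4.

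With each genome scaled to its own sum, none of 33 members passed for WT_B over WT_A, where 102 of 12809 genes did (0.796%), and 8 had an unadjusted p under 0.05, against 2782 of all genes (21.7%), so the share of members was near that of all genes. Of these 8, 6 had a positive fold change (mt-Rnr1, mt-Nd5, mt-Tl1, mt-Ty, mt-Th and mt-Ta) and 2 a negative one (mt-Rnr2 and mt-Ts1). mt-Rnr1 differed by 1.41 ± 0.496 (SE; adjusted p = 0.147) and mt-Rnr2 by −1.53 ± 0.481 (SE; adjusted p = 0.123). mt-Ta, an alanine tRNA, had the smallest adjusted p, with 3.44 ± 0.952 (SE; adjusted p = 0.105). Both mt-Ta and mt-Th were at 0 in A23, A24 and A26, libraries with only 140010 to 514331 mt- fragments. These 2 tRNAs could meet the expression filter only with WT_B hearts, so the filter favoured a positive fold change for them. For mt-Co1 and mt-Nd1 the log2 fold changes were 0.15 ± 0.298 (SE; adjusted p = 0.812) and 0.14 ± 0.231 (SE; adjusted p = 0.774). Without A22, 9 members passed on this scale (mt-Rnr1, mt-Nd2, mt-Nd4l, mt-Tl1, mt-Ty, mt-Tg, mt-Th and mt-Ta higher and mt-Rnr2 lower), beside 2009 of 12667 genes. Of these, mt-Tg, mt-Th and mt-Ta were at 0 in every WT_A heart kept. They met the filter through WT_B alone and could only come out higher there.

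**Figure D5:**
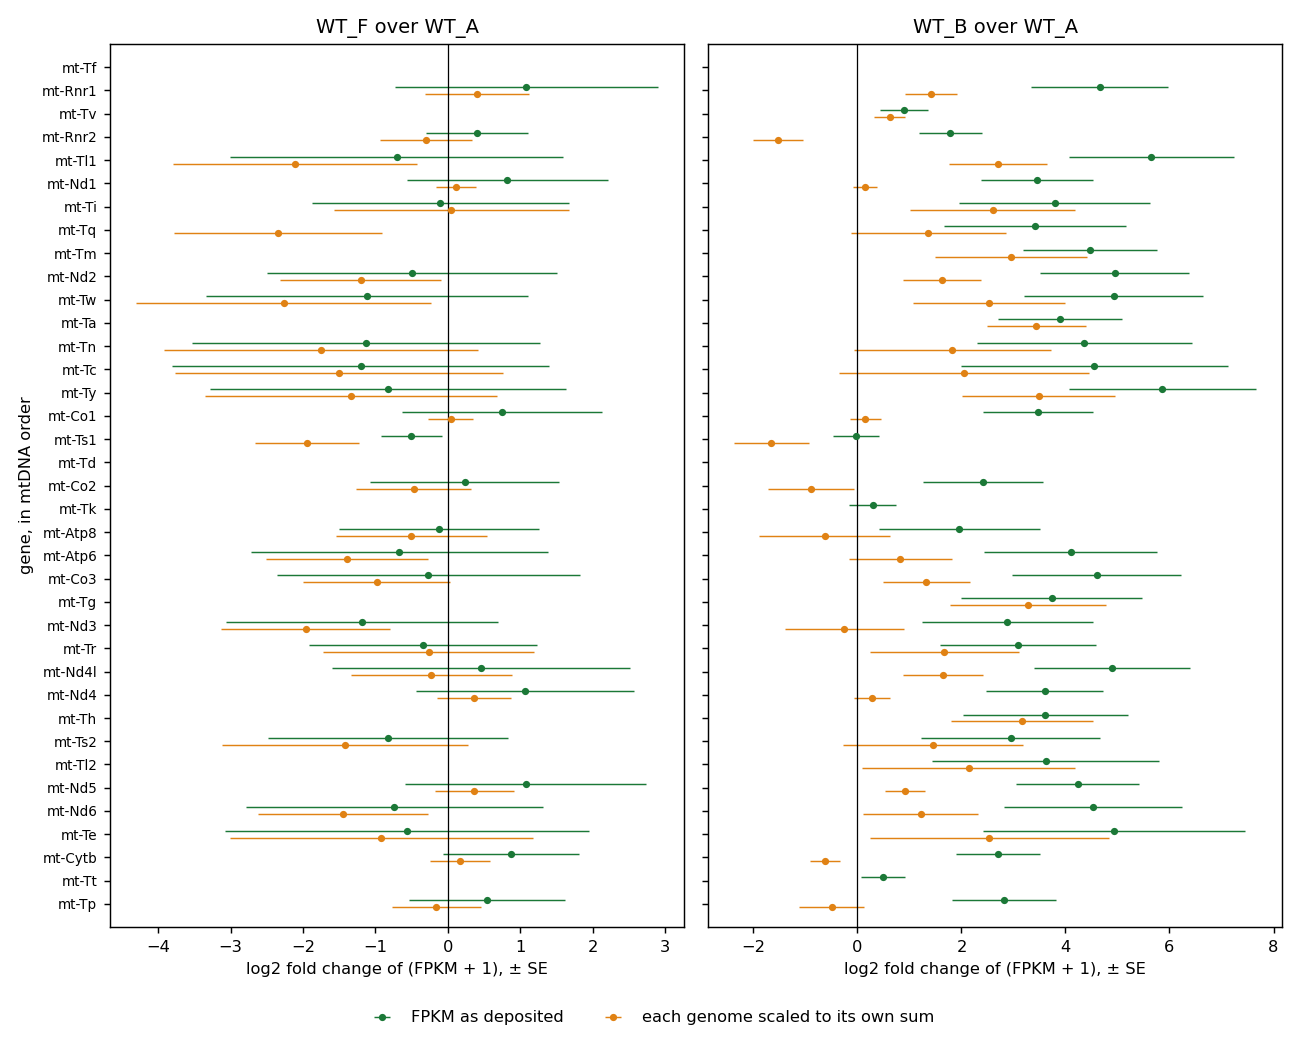
Log2 fold change of (FPKM + 1) with its SE from limma for each tested mt- gene (rows, in mtDNA order), WT_F over WT_A on the left and WT_B over WT_A on the right, with FPKM as deposited and with each genome scaled to its own sum. On the right the deposited values lie between −0.03 and 5.87 and the scaled ones between −1.66 and 3.48; on the left they lie between −1.20 and 1.08 and between −2.35 and 0.41.

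Nuclear genes that serve mtDNA were set beside its transcripts. Of 13 tested genes of mtDNA transcription and replication, 18 of RNA processing, tailing and decay and 15 of rRNA and tRNA modification, none passed in limma or had an unadjusted p under 0.05 for WT_F over WT_A. For WT_B over WT_A none of 13, 17 and 15 passed either, and at an unadjusted p under 0.05 there were 2 higher and 1 lower in transcription and replication, 7 higher in processing and none in modification, 10 of 45 genes in all (22.2%), near the 22.5% of all genes tested. The list medians were 0.07, 0.11 and −0.09 on the log2 scale. Tfb2m, a transcription initiation factor of mitochondria, was at 19.2, 12.3, 16.0, 12.6 and 11.8 FPKM in WT_F hearts, 12.5, 15.4, 19.1, 15.9 and 16.8 FPKM in WT_B hearts and 17.9, 11.1, 11.7 and 12.6 FPKM in WT_A hearts. Tefm, the elongation factor, was at 9.65, 9.84, 11.2, 9.62 and 8.52 FPKM in WT_F hearts, 8.64, 9.09, 8.69, 8.66 and 11.3 FPKM in WT_B hearts and 12.7, 8.83, 11.8 and 11.4 FPKM in WT_A hearts. Neither spanned more than 1.72-fold across the 14 hearts, but other genes of these lists did. Picked after their values were seen, Mterf2 was at 1.96 to 7.22 FPKM and Fastkd2 at 0.923 to 5.16 FPKM. The 2 most abundant processing genes were Hsd17b10, a subunit of the RNase P that cuts tRNAs at their 5′ end, at 39.5 to 101 FPKM and Fastk at 50.2 to 91.6 FPKM, and the 2 most abundant modification genes, Trmt5 and Mrm3, were at 10.2 to 20.7 FPKM and 4.495 to 13.05 FPKM.

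Some nuclear transcripts were low in the same hearts as the mtDNA genes. They were chosen after their values were seen. Pnpt1, which encodes the mitochondrial polynucleotide phosphorylase, was at 6.44, 2.73, 4.03, 2.84 and 1.69 FPKM in WT_F hearts, 5.50, 5.80, 5.93, 5.83 and 5.95 FPKM in WT_B hearts and 6.45, 1.08, 2.17 and 1.32 FPKM in WT_A hearts. Pln, the phospholamban gene of cardiomyocytes, was at 633, 168, 309, 136 and 9.95 FPKM in WT_F hearts, 504, 492, 524, 583 and 415 FPKM in WT_B hearts and 579, 8.98, 89.4 and 9.91 FPKM in WT_A hearts. Pln was at 9.95 FPKM or less in A23, A26 and A32, the 3 hearts with the smallest mitochondrial share, while the other cardiomyocyte genes Myh6, Actc1, Atp2a2, Tnni3, Tnnt2 and Ryr2 spanned at most 2.05-fold over all 14. The cardiomyocyte list summed to 14474 to 16244 FPKM in WT_F, 14289 to 18707 FPKM in WT_B and 12679 to 17117 FPKM in WT_A. A24, with its atrial genes, had a mitochondrial share of 6.63%, between those of other WT_A hearts. The part of tissue make-up, RNA quality or library preparation in these levels was not tested.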

How the data were processed

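Per the labels and the study's methods, RNA was bound to poly-T beads, fragments were counted per gene with featureCounts 1.5.0-p3, and the authors deposited FPKM values, 1 file per heart (GRCm39 in the processing notes). Counting options and the strand setting are not given in the sources used here. Names, lengths and sequences were taken from GENCODE M21 (GRCm38). FPKM multiplied by length gave steps of whole fragments, with 90.3% to 92.0% of values of 1 to 30 fragments within 0.02 of a whole number (4% by chance), from which the depth was read.

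Groups were compared with limma 3.58.1 (R 4.3.3; trend, two-sided) on log2(FPKM + 1), 2 groups per fit, for genes that reached 0.5 FPKM in 4 or more of the libraries compared, with Benjamini-Hochberg adjustment over all genes and a threshold of 0.05. A fold change on this scale understates low genes. Fits were repeated with the mt- genes scaled to one sum and all other genes to another, and the script was tested on simulated data. Copies were aligned with blastn 2.17.0. Alternatives were pseudocounts of 0.1 and 5, no filter and a filter of 2 FPKM, a joint fit, other scalings and leaving out each heart. Values per heart are given for both rRNAs, the 6 mRNAs with the largest mean share, mt-Nd6, the short or overlapping mRNAs and the 5 most abundant tRNAs, and in nuclear lists for the 2 most abundant genes. Members and lists were chosen with earlier results of these data known.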

Additional observations from a re-analysis of the deposited data

Results flagged for a closer look

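In groups of 4 or 5 hearts, 1 heart lay far from the others of its group in 19 of 75 tests of 25 measures by Dixon's criterion, which flags about 1 group in 20 by chance, and the measures share hearts and denominators. In WT_F, A28 accounted for 9. Its shares of mt- FPKM were 9.69% for mt-Nd2 (others at most 2.08%), 6.25% for mt-Nd6 (at most 0.987%), 1.65% for mt-Atp6 (at most 0.282%), 0.244% for mt-Nd3 (at most 0.0674%) and 1.71% for mt-Co3 (at most 0.271%). Among tRNAs, A28 held 1.07% for mt-Tc, 0.936% for mt-Te, 0.565% for mt-Tn and 0.464% for mt-Tl1, where no other WT_F heart exceeded 0.0508%. A32 stood apart by its rRNA share of 9.49% (others at most 4.40%) and its mt-Nd1 share of 7.55% (others at least 12.9%).

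In WT_B, all 5 such values belonged to B9. The minus-strand genes held 0.655% (others at least 9.39%), mt-Co1 46.1% (others at most 30.1%), mt-Nd2 4.83% (others at least 9.37%), mt-Nd6 0.296% (others at least 5.80%) and mt-Nd3 0.00751% (others at least 0.158%).

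In WT_A, A22 had 51.0% of its FPKM in mt- genes (others 1.93% to 6.63%) and a mt-Co3 share of 2.20% (others at most 0.403%). A26 had a mt-Co2 share of 17.3% (others at most 2.09%).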

How the results depend on the processing

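Of 149 values recomputed under alternatives, all of them percents or counts of members passing, 141 stayed within the replicate spread or the same count and 8 moved. A mean percent without a single heart cannot move by as much as the SD of its group. Those values could therefore only be counted as staying, and the tally does not measure dependence on single hearts. The mean WT_A mitochondrial share, 15.4% with all hearts and 3.58% without A22, was counted as staying. The median log2 fold change of the members for WT_F over WT_A, −0.31 with all hearts, turned to 1.42 without A22 and was −1.45 without A28. Computed over fragments in place of FPKM, the mitochondrial share was 22.8% in WT_B, the tRNA share was 0.118% in WT_F, 0.262% in WT_B and 0.174% in WT_A, and the minus-strand share was 2.64% in WT_B and 1.28% in WT_A, since fragments weight genes by length. Leaving out each heart in turn gave mitochondrial shares of 8.70% to 20.6% in WT_F, 44.4% to 48.9% in WT_B and 3.58% to 19.9% in WT_A. Members passing limma for WT_B over WT_A ranged from 0 to 25, and from 0 to 9 with each genome scaled to its own sum, the 25 and the 9 both without A22. Both counts include mt-Ta, mt-Tg and mt-Th, which were at 0 in the WT_A hearts kept. No member passed for WT_F over WT_A in any alternative run. Scaling each genome to its own sum moved the median log2 fold change of all genes to 0.12 for WT_B over WT_A without A24. No paired analysis was possible because the groups share no replicate numbers. Values of a few fragments, as for most tRNAs outside A28, A22 and the WT_B hearts other than B9, limit what can be compared.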
